A study of Mus musculus with 4 samples.

Results

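The 40 genes described here are the interferon response and MHC class I genes of the islet transcriptome: the transcription factors and nucleic acid sensors of the interferon pathway, the antiviral genes it induces, and the genes that load and present peptides on MHC class I. They were chosen by symbol, with earlier results of these data known, and all 40 were found among the 24940 genes of the deposited table. Islets of Langerhans were sequenced from Tafazzin-knockdown mice (replicates 3 and 4) and from non-transgenic control mice (replicates 1 and 2), 2 libraries each. All animals were male, 3 to 4 months old and fed low-fat chow, and each library pools about 300 islets from 2 to 3 mice. The controls carry no transgene, so that an effect of the transgene and one of Tafazzin loss cannot be told apart, and the sources used here give neither the promoter of the knockdown construct nor the strain. Tafazzin is the mitochondrial enzyme that remodels cardiolipin.

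Interferons are secreted proteins that signal through receptors and the JAK kinases to transcription factors such as STAT2 and IRF9, which act through the interferon-stimulated response element (ISRE) to switch on antiviral genes. Cytosolic sensors of viral or misplaced nucleic acids start the same programme, and interferon also raises MHC class I, the complex of a heavy chain and beta-2 microglobulin that shows peptides to cytotoxic T cells. In islets, beta cells can show both responses, and excess MHC class I on beta cells is known from autoimmune diabetes.

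In the knockdown islets 0 of 33 tested interferon response genes passed the limma test in either direction, where 2.49% of all tested genes were called higher and 0.0443% lower, so that the count is near the background. The antigen-presenting genes B2m, H2-K1 and H2-D1 were lower in both knockdown libraries than in both controls, by a ratio of 0.740 to 0.852, but none passed limma on the deposited values. B2m was called lower by edgeR, DESeq2 and limma on rescaled libraries, and H2-K1 by DESeq2 and limma on rescaled libraries. Of 98 other tested genes of the pathway limma called 4 higher (Ifitm3, Apobec3, Ifngr2 and Socs3). Apobec3 and Ifngr2 lost the call by edgeR and on rescaled libraries, and Ifitm3 lost it on rescaled libraries. DESeq2 called 0 of the 98. The 2 knockdown pools also differed from each other: on rescaled values replicate 3 exceeded replicate 4 for 28 of the 33 interferon response genes, against 51.5% of all tested genes, and control replicate 2 exceeded control replicate 1 for 24 of the 33. That pattern was noticed after the values were seen, and several marker lists of other cell types showed it too.

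Levels are given in units of 1 read in 10000000 of all reads in a library, counted over whole gene bodies. The library totals were 76680282 and 78630832 reads in the knockdown and 68823160 and 81073502 in the controls, of which 41.6% to 42.6% lay in the 45S ribosomal RNA row. Log2 fold changes compare knockdown with control libraries and are given relative to the median of all 13531 tested genes, which itself lay at 0.17, with the standard error (SE) of limma. The p-values of limma refer to the change before that median is subtracted. Median-ratio scaling, which brings that median to -0.0048, and the edgeR test on whole reads are given beside it where they differ. The targeted gene Taz (chromosome X, 74282718 to 74290151, plus strand) had 13.8 and 12.7 units in the knockdown libraries, against 23.1 and 15.4 units in the controls. Both knockdown libraries were below both controls, and Taz did not pass limma (adjusted p = 0.529; log2 fold change -0.65 ± 0.25 SE). Beta cell markers were read at high levels in every library: 8 genes summed to 82780.2 and 89684 units in the knockdown libraries and 98134 and 77588 units in the controls.

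Of the 40 genes, 39 passed the filter of a mean of at least 1 unit, and Oas3, an oligoadenylate synthetase, did not. Limma called 0 of the 39 higher and 0 lower, where 2.49% of all tested genes were called higher and 0.0443% lower. At an unadjusted p under 0.05 there were 2 of the 39, both higher (Gbp2 and Oasl1), against 9.88% of all tested genes higher and 0.466% lower. EdgeR called 1 lower (B2m; 0.148% of all tested genes) and limma after median-ratio scaling called 2 lower (B2m and H2-K1; 0.155%), as did DESeq2 (0.0813%), and none of these 3 tests called a member higher, where they called 1.29%, 1.12% and 0.613% of all tested genes higher. The median log2 fold change of the 39 was -0.11, with 16 above and 23 below the median of all genes. After scaling, the 95% interval of the fold change lay within 2-fold of the median in either direction for 29 of the 39 genes; that interval borrows its spread from all genes. A p above the threshold does not show that a gene was equal in the groups.

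**Figure D1:**
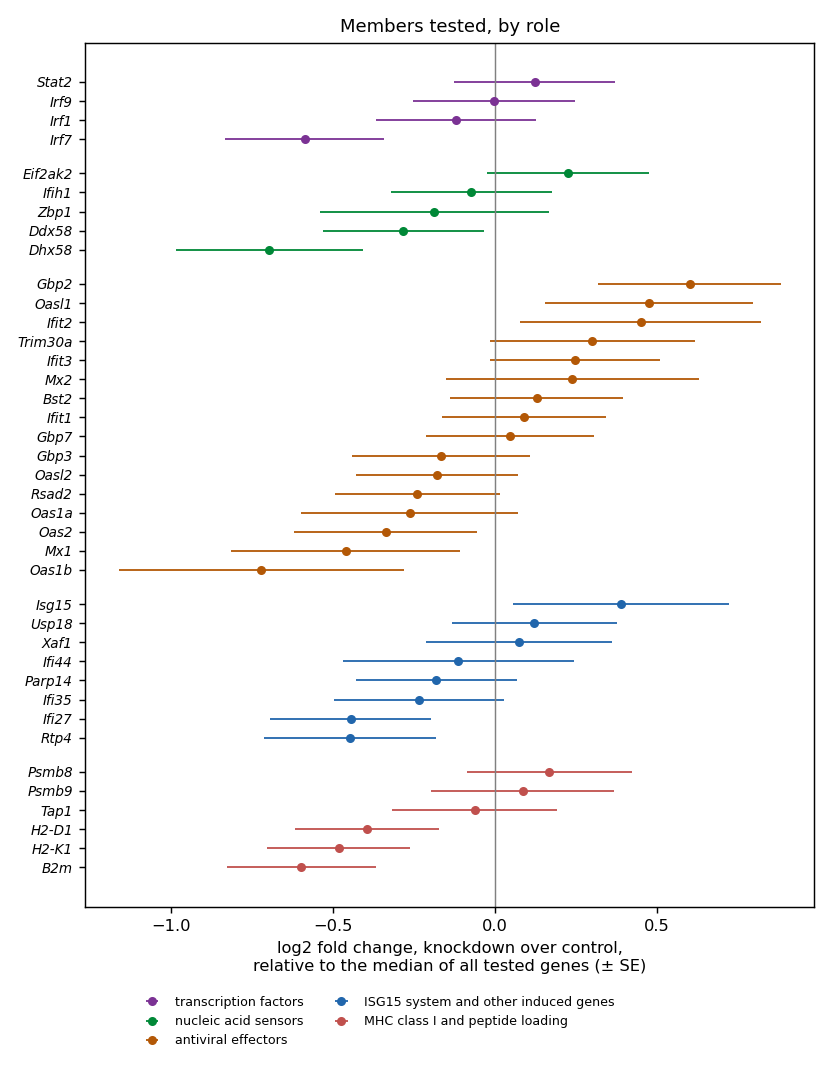
Log2 fold change of knockdown over control libraries for the 39 tested members, relative to the median of all tested genes, by role; bars are the standard error of limma. The points lie between -0.72 for Oas1b and 0.60 for Gbp2, and B2m, H2-K1 and H2-D1 are the lowest of the MHC class I group.

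On the deposited values both knockdown libraries lay above both controls for 6 members, which is 15.4%, against 34.9% of all tested genes. Both lay below for another 6, 15.4%, against 4.49%. After median-ratio scaling the counts were 0 higher, against 20.4%, and 13 lower, 33.3%, against 20%. These 13 were B2m, H2-K1, H2-D1, Irf1, Ddx58, Dhx58, Oas1b, Oas2, Oasl2, Mx1, Ifi27, Parp14 and Rtp4.

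Interferon genes themselves were at or near 0. Of 9 interferon genes looked up (Ifnb1, Ifng, Ifne, Ifnk, 3 alpha and 2 lambda genes), 7 had no read in any library, and Ifna2 and Ifnk had at most 2 reads in a library. That limits detection to more than about 3 reads per library. The receptor chains were read in all libraries. Ifnar1, a chain of the type I receptor, stood at 25.6 and 32.6 units in the knockdown libraries, against 23.8 and 25.7 units in the controls, and Ifnar2, its partner, at 20.1 and 20.6 units in the knockdown libraries, against 20.6 and 17.0 units in the controls. Neither passed the test (limma adjusted p = 0.891 and 0.959).

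Ifngr2, the signalling chain of the interferon gamma receptor, rose: 18.6 and 16.3 units in the knockdown libraries, against 5.96 and 12.3 units in the controls (log2 fold change 0.77 ± 0.26 SE, limma adjusted p = 0.0178). Both knockdown libraries lay above both controls, with control replicate 1 lowest. The call of Ifngr2 did not hold by edgeR (adjusted p = 0.362) or once the libraries were scaled (limma adjusted p = 0.272), nor without control replicate 1 (limma adjusted p = 0.219), knockdown replicate 3 (0.921) or knockdown replicate 4 (0.128). In each such fit, here and below, the group that loses a library holds 1, which is assumed to vary like the other group and the trend over genes. Its partner Ifngr1, which binds the ligand, stood at 20.1 and 17.0 units in the knockdown libraries, against 12.3 and 10.9 units in the controls (limma adjusted p = 0.237). Of 11 tested genes for receptors and JAK-STAT proteins, limma called 1 higher and 0 lower, against 2.49% and 0.0443% of all tested genes. Stat3, which carries interleukin 6 signals and has the most reads of this list, stood at 268 and 224 units in the knockdown libraries, against 242 and 191 units in the controls.

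Among the 4 transcription factors, Irf9, the DNA-binding partner of STAT2, stood at 27.6 and 22.8 units in the knockdown libraries, against 23.1 and 21.6 units in the controls. Stat2 stood at 32.0 and 29.8 units in the knockdown libraries, against 23.8 and 26.4 units in the controls. Both knockdown libraries were the higher ones on these deposited values, without passing the test (limma adjusted p = 0.820). After scaling the groups of Stat2 overlapped, and control replicate 2 was its highest library. Irf1, an early target of interferon gamma, stood at 32.2 and 36.1 units in the knockdown libraries, against 37.5 and 29.1 units in the controls, with the groups overlapping. Irf7, the factor that amplifies type I interferon production, had 48.0 and 22.1 units in knockdown replicates 3 and 4 and 38.6 and 50.3 units in control replicates 1 and 2. Knockdown replicate 4 alone was low, at 17.7 to 27.3 units within counting error (95% Poisson interval), against 41.3 to 55.4 in knockdown replicate 3. The log2 fold change of Irf7 was -0.59 ± 0.25 SE (limma adjusted p = 0.601). Fits with a single library in one group called Irf7 lower when control replicate 2, the higher control, stood alone (limma adjusted p = 0.0249) and, by edgeR, when the low knockdown replicate 4 stood alone (adjusted p = 4.40e-07), so that these calls follow from the library kept.

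None of the 5 nucleic acid sensors was called by limma, edgeR, DESeq2 or limma after scaling, and 4 of the 5 lay below the median of all genes. Ifih1, which encodes MDA5, a sensor of long double-stranded RNA, stood at 31.6 and 26.5 units in the knockdown libraries, against 31.8 and 22.9 units in the controls. Ddx58, which encodes RIG-I, a sensor of RNA ends, stood at 29.7 and 25.4 units in the knockdown libraries, against 32.4 and 27.6 units in the controls. Eif2ak2, the RNA-activated kinase PKR that halts translation, stood at 27.8 and 26.6 units in the knockdown libraries, against 17.1 and 24.4 units in the controls. Both knockdown libraries were above both controls on these deposited values, control replicate 1 being the low one. After scaling the groups of Eif2ak2 overlapped, and control replicate 2 was its highest library. Dhx58, which encodes LGP2, a regulator of these sensors, stood at 6.26 and 4.32 units in the knockdown libraries, against 6.97 and 9.13 units in the controls, lower in both knockdown libraries (log2 fold change -0.70 ± 0.29 SE, limma adjusted p = 0.543). Zbp1, a sensor of Z-form nucleic acids, had 7.04 and 1.15 units in knockdown replicates 3 and 4 and 3.49 and 2.96 units in the controls. The knockdown libraries thus held its highest and its lowest value. Mavs, the mitochondrial outer membrane protein through which MDA5 and RIG-I signal, stood at 13.0 and 14.9 units in the knockdown libraries, against 15.1 and 10.9 units in the controls (limma adjusted p = 0.960). Of 14 tested adaptors and regulatory factors 0 were called in either direction by limma or edgeR. At an unadjusted p under 0.05 by limma there were 2, both higher, against 9.88% of all tested genes higher. Tmem173, which encodes the DNA-sensing adaptor STING, stood at 6.26 and 2.29 units in the knockdown libraries, against 0.872 and 1.23 units in the controls (limma adjusted p = 0.0613). Nlrc5, the activator of MHC class I genes, stood at 6.78 and 2.80 units in the knockdown libraries, against 1.74 and 1.73 units in the controls (limma adjusted p = 0.153). Trim25, an E3 ligase that acts on RIG-I and has the most reads of that list, stood at 63.4 and 62.1 units in the knockdown libraries, against 76.1 and 53.3 units in the controls.

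The antiviral effectors spread on both sides of the median of all genes, 9 of the 16 tested above it and 7 below. Their log2 fold changes ran from -0.72 for Oas1b to 0.60 for Gbp2. Gbp2, a guanylate-binding GTPase, had the largest statistic: 12.8 and 7.12 units in the knockdown libraries, against 4.21 and 6.41 units in the controls (limma adjusted p = 0.151; 0.514 by edgeR). Gbp7, of the same family, stood at 13.3 and 12.5 units in the knockdown libraries, against 11.9 and 10.1 units in the controls, and Gbp3 at 12.0 and 5.60 units in the knockdown libraries, against 6.10 and 11.1 units in the controls, with a high and a low library in each group. Oasl2, an oligoadenylate synthetase-like protein, stood at 23.2 and 21.9 units in the knockdown libraries, against 24.4 and 21.2 units in the controls. The groups overlapped on these deposited values and did not after scaling, where Oasl2 was among the 13 lower genes. Rsad2, which encodes viperin, stood at 21.1 and 11.4 units in the knockdown libraries, against 17.7 and 15.3 units in the controls, and Ifit1, which binds viral RNA ends, at 23.9 and 14.5 units in the knockdown libraries, against 15.8 and 15.0 units in the controls. Mx1 and Oas1b, which are listed with noncoding transcripts and are known to be disrupted in many laboratory strains, stood at 2.09 and 3.69 units in the knockdown libraries, against 4.50 and 2.96 units in the controls for Mx1. Oas1b stood at 1.56 and 0.763 units in the knockdown libraries, against 2.03 and 2.22 units in the controls. The other synthetase genes Oas1a and Oas2, with Mx2, Ifit2, Trim30a and Oasl1, had limma adjusted p from 0.457 (Oasl1) to 0.974 (Oas1a). Oasl1 had 10.2 and 3.05 units in the knockdown libraries and 5.81 and 1.73 units in the controls. It was called higher only where the low control or the high knockdown library stood alone in its group (limma adjusted p = 0.0260 without control replicate 1 and 0.0193 without knockdown replicate 4). Oas3, not tested, had 1.56 and 0.127 units in the knockdown libraries and 0.872 and 0.740 in the controls, on 1 to 12 reads.

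ISG15 is a ubiquitin-like protein that interferon induces, and USP18 removes it and damps the receptor. Usp18 stood at 18.8 and 15.6 units in the knockdown libraries, against 16.6 and 11.6 units in the controls, and Isg15 at 8.35 and 2.80 units in the knockdown libraries, against 2.33 and 3.95 units in the controls. For Isg15 knockdown replicate 3 was the high library, and control replicate 2, on 32 reads, stood above control replicate 1, on 16 reads. Parp14, an ADP-ribosyltransferase, stood at 33.4 and 29.6 units in the knockdown libraries, against 34.3 and 29.5 units in the controls. Its groups, too, overlapped on the deposited values and not after scaling, where it was among the 13 lower genes. Ifi27 stood at 30.0 and 24.3 units in the knockdown libraries, against 33.7 and 32.3 units in the controls; its whole span lies inside Ifi27l2a on the opposite strand, which holds 1.04 times its level, so that their reads cannot be told apart. Ifi35, Ifi44, Rtp4 and Xaf1 had limma adjusted p from 0.845 (Rtp4) to 0.987 (Ifi44).

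The median gap between the 2 knockdown pools, without regard to sign, was 0.363 for the 33 tested interferon response genes and 0.196 for all tested genes, on the scale of log2(scaled value + 1). The gap between the 2 control pools was 0.290 for the 33 and 0.210 for all. Both genotypes thus had a wider gap for these genes, but the genes were not matched for level with all tested genes. The 33 had at most 408 reads in a library, and counting error may widen the gap of genes with few reads. After median-ratio scaling knockdown replicate 3 exceeded knockdown replicate 4 for 28 of the 33 tested interferon response genes, 84.8%, against 51.5% of all tested genes. The median of replicate 3 minus replicate 4, on the same scale, was 0.27 for these genes and 0.0082 for all. Control replicate 2 exceeded control replicate 1 for 24 of the 33, and 23 of the 33 did both, 69.7%, against 28.6% of all tested genes. The pattern is given without a test, and genes induced together are not independent of each other. It was not particular to these genes: as given below, several marker lists of other cell types showed it in as large a share or larger.

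Ifit3, an interferon-induced tetratricopeptide protein, showed it most plainly among the genes with at least 50 reads in each library: 23.5 and 6.61 units in knockdown replicates 3 and 4, on 180 and 52 reads, and 7.26 and 11.7 units in control replicates 1 and 2. The counting intervals of the knockdown libraries, 18.9 to 28.9 and 4.32 to 9.69 units, did not touch. The direction of Ifit3 varied with the libraries kept. Its log2 fold change was 1.07 with knockdown replicate 3 alone and -0.59 with knockdown replicate 4 alone. Without control replicate 1 it was -0.20. Bst2, the membrane tether tetherin, had 16.8 and 6.87 units in the knockdown libraries and 7.99 and 9.37 in the controls, a ratio of 2.45 between the 2 knockdown pools. That ratio was 2.98 for Isg15, 2.17 for Irf7 and 3.33 for Oasl1, and it was reversed for Ifi35 (0.548) and Mx1 (0.566).

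**Figure D2:**
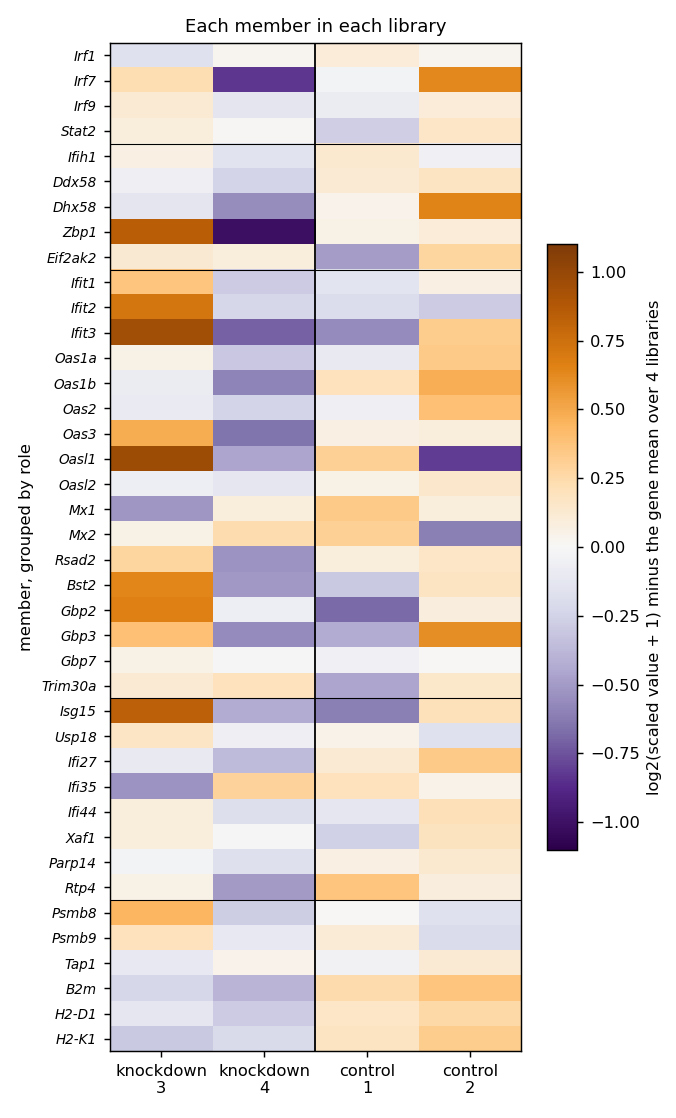
Level of each of the 40 members in each library as log2(scaled value + 1) minus the mean of that gene over the 4 libraries; orange is above and purple below the mean, and lines separate the role groups. Knockdown replicate 3 is orange for Ifit3, Isg15, Bst2 and Oasl1 where knockdown replicate 4 is purple, while B2m, H2-D1 and H2-K1 are purple in both knockdown columns and orange in both control columns.

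Markers of other cell types differed between the same libraries. Acinar markers, from digestive-enzyme cells, summed to 4677 and 2167 units in the knockdown libraries and 2645 and 5395 units in the controls (11 genes), so that knockdown replicate 3 and control replicate 2 were again the high libraries. Duct markers summed to 1704 and 1128 units in the knockdown libraries and 878 and 931 units in the controls (10 genes, 9 tested, 3 called higher by limma). Endothelial markers summed to 361 and 275 units in the knockdown libraries and 183 and 158 units in the controls (10 genes, 5 called higher). Stellate cell and fibroblast markers summed to 341 and 269 units in the knockdown libraries and 117 and 119.9 units in the controls (10 genes, 7 called higher). Limma called 2.49% of all tested genes higher. EdgeR called 2 duct, 3 endothelial and 6 stellate cell and fibroblast markers higher. The counts were 1, 3 and 6 by limma after scaling and 0, 3 and 5 by DESeq2. Macrophage markers summed to 57.6 and 51.6 units in the knockdown libraries and 41.3 and 40.6 units in the controls (13 genes). The 2 called higher by limma were Lyz2 and Cd14. Lyz2 stood at 6.78 and 5.60 units in the knockdown libraries, against 1.6 and 0.370 units in the controls. Cd14 stood at 12.8 and 8.90 units in the knockdown libraries, against 2.62 and 5.67 units in the controls. The call of Cd14 was lost by edgeR (adjusted p = 0.146) and after scaling (limma adjusted p = 0.114), and that of Lyz2 held in both. The median log2 fold change of the 10 tested was -0.023, with 6 below the median of all genes. Lymphocyte markers were near 0: of 12 genes found, 8 and 10 had no read in the knockdown libraries and 9 and 8 in the controls, among them the T cell genes Cd3d and Cd4 and the B cell gene Ms4a1 in all 4. After scaling, 88.9% of tested duct markers were higher in knockdown replicate 3 than 4 and in control replicate 2 than 1. The same held for 80% of endothelial, 77.8% of acinar and 70% of stellate cell and fibroblast markers. It held for 20% of macrophage and 0% of beta cell markers, against 28.6% of all tested genes. The part of these cells in the levels of the interferon response genes was not tested. In whole islets fewer cells of a type and less RNA per cell cannot be told apart.

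**Figure D3:**
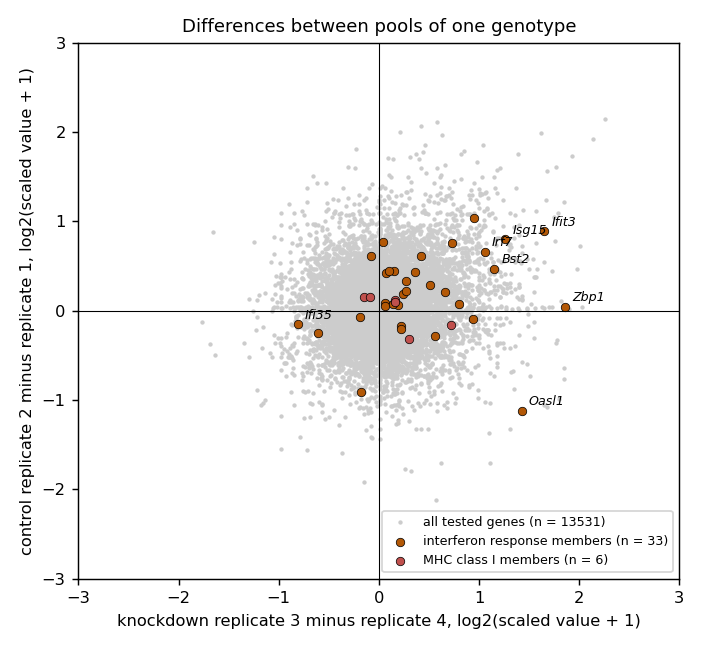
Difference between the pools of each genotype on the scale of log2(scaled value + 1): knockdown replicate 3 minus replicate 4 on the horizontal axis, control replicate 2 minus replicate 1 on the vertical axis, for all 13531 tested genes (grey), 33 interferon response members (brown) and 6 MHC class I members (red). Of the brown points 23 lie to the upper right of the origin, Ifit3, Isg15, Bst2 and Irf7 among them.

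Promoter sequences are shown for the antigen-presenting genes that were lower together and for Ifit3 and Isg15, which differed between the knockdown pools. The sequences are from RefSeq (GRCm38.p6), 250 bases before to 50 after the start, 5′ to 3′ on the gene's strand, with motif matches in capitals: the ISRE core, a pair of GAAA repeats with any 2 bases between them, on either strand, in B2m, Ifit3 and Isg15, and GGGATTCCC on either strand (a kappa B palindrome, bound by NF-kappaB) in H2-K1 and H2-D1.
B2m (chr2:122147437-122147736, plus strand): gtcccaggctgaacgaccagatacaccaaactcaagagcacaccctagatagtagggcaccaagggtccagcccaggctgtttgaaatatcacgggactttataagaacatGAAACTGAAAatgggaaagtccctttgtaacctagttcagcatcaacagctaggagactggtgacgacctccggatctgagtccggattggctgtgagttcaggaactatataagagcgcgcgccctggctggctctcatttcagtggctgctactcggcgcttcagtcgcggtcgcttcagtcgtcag
H2-K1 (chr17:34000284-34000583, minus strand): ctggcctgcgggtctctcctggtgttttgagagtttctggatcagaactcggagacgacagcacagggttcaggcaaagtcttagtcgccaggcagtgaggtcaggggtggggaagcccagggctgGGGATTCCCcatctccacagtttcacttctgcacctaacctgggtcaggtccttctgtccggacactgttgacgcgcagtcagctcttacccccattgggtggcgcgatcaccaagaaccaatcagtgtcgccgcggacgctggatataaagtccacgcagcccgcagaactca
H2-D1 (chr17:35262844-35263143, plus strand): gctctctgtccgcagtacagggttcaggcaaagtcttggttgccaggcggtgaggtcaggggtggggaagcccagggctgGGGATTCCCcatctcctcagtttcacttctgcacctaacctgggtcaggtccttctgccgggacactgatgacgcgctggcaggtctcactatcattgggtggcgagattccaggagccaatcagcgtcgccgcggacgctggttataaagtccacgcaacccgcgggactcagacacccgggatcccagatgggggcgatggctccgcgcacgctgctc
Ifit3 (chr19:34583279-34583578, plus strand): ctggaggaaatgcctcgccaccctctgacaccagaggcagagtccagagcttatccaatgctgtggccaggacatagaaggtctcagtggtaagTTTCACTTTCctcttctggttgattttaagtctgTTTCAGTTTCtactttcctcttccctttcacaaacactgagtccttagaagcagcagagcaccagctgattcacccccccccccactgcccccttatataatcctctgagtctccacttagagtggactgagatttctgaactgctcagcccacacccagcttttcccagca
Isg15 (chr4:156200769-156201068, minus strand): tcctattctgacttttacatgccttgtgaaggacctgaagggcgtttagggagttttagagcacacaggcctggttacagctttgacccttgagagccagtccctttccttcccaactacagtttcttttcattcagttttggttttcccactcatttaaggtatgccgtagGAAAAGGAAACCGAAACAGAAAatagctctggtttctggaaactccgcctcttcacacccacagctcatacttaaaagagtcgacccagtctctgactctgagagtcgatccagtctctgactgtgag

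Promoters were listed for 30 of the 40 members. The ISRE core was present in 16 of the 30 genes, 53.3%, against 3.99% of 27025 genes, and in 1 of the 6 MHC class I members, B2m, at -139 from the start. Ifit3 holds it at -156 and -122 and Isg15 at -78, -72 and -66, where the 3 matches overlap. The gamma-activated core TTCNNNGAA was present in 8 of the 30, against 9.55% of all genes; in Bst2 it overlaps an ISRE core. The kappa B palindrome was present in 3 of the 30, against 0.414% of all genes: at -124 in H2-K1, at -170 in H2-D1 and at -12 in Irf1. A match is a description of the letters only. The search took exact matches to these cores, so that a promoter with no match may hold a variant of an element.

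B2m encodes beta-2 microglobulin, the light chain of every class I molecule (chromosome 2, 122147687 to 122153082, plus strand, mm10). It had 168 and 147 units in knockdown replicates 3 and 4, against 226 and 200.1 units in control replicates 1 and 2, on 1287 and 1156 reads against 1552 and 1622. Both knockdown libraries lay below both controls, and the gap between the groups was wider than that within either. The mean was 157 ± 14.7 units in the knockdown and 213 ± 18.0 units in the controls (SD, n = 2 each), a ratio of 0.740 and a log2 fold change of -0.60 ± 0.23 SE. It did not pass limma on the deposited values (adjusted p = 0.529), and it was called lower by edgeR (adjusted p = 0.0188), by DESeq2 (adjusted p = 0.00151) and by limma once the libraries were scaled (adjusted p = 0.00410). The edgeR call was lost without either control (adjusted p = 0.849 and 0.181 without control replicate 1 and 2) and without knockdown replicate 4 (0.132), and held without knockdown replicate 3 (0.0373). The call after scaling was lost without control replicate 1 (limma adjusted p = 0.501) or control replicate 2 (0.112). On the deposited values B2m and H2-K1 were called lower where control replicate 1, the higher control for both, stood alone (limma adjusted p = 0.00540 and 0.0323). B2m lies wholly inside the span of Patl2 on the opposite strand, whose row holds 1.01 times its level in reads that cannot be told apart from it.

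H2-K1, a classical class I heavy chain (chromosome 17, 33996012 to 34000333, minus strand), had 352 and 366 units in the knockdown libraries, against 469.6 and 426 units in the controls. Here too the groups did not overlap, and the 2 knockdown libraries differed from each other by less than the controls did. Its log2 fold change was -0.48 ± 0.22 SE (limma adjusted p = 0.728; 0.0151 once scaled, 0.00615 by DESeq2 and 0.107 by edgeR). The call after scaling was lost without control replicate 1 (limma adjusted p = 0.501), control replicate 2 (0.162) or knockdown replicate 3 (0.140). H2-D1, the other classical heavy chain (chromosome 17, 35263094 to 35267497, plus strand), had 348 and 305 units in the knockdown libraries, against 409.9 and 357 units in the controls (log2 fold change -0.40 ± 0.22 SE, limma adjusted p = 0.851; 0.0637 after scaling and 0.247 by edgeR). Knockdown replicate 3 stood just under control replicate 2. The row of H2-L covers 81.9% of the span of H2-D1 on the same strand and holds 0.666 of its level. Class I heavy chains are nearly identical in sequence and vary between strains, so that reads may be split among them.

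The 3 genes were lower in the knockdown under each of the scalings, pseudocounts, filters and left-out libraries in which they were tested. Leaving out overlapping genes removed B2m and H2-D1, so that of the 3 only H2-K1 was tested there. B2m had a log2 fold change from -0.70 to -0.52 when a library was left out. The counts of all 3 were high, so that counting error was small beside their levels. The 95% Poisson interval of B2m was 155 to 181 and 135 to 159.5 units in the knockdown libraries. In the controls it was 209.9 to 242 and 187 to 214 units. For H2-D1 the intervals of knockdown replicate 3, 330 to 367 units, and control replicate 2, 339 to 376 units, overlapped. Beta cell markers had a median log2 fold change of -0.25 with 8 of 8 below the median of all genes. Limma called 0 of them on the deposited values, and edgeR, DESeq2 and limma after scaling each called 1 lower, Mafa, a beta cell transcription factor (adjusted p = 0.0439, 0.0318 and 0.0198). After scaling 7 of the 8 were lower in both knockdown libraries, 87.5%, against 20% of all tested genes. Their part in the lower class I values was not tested.

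**Figure D4:**
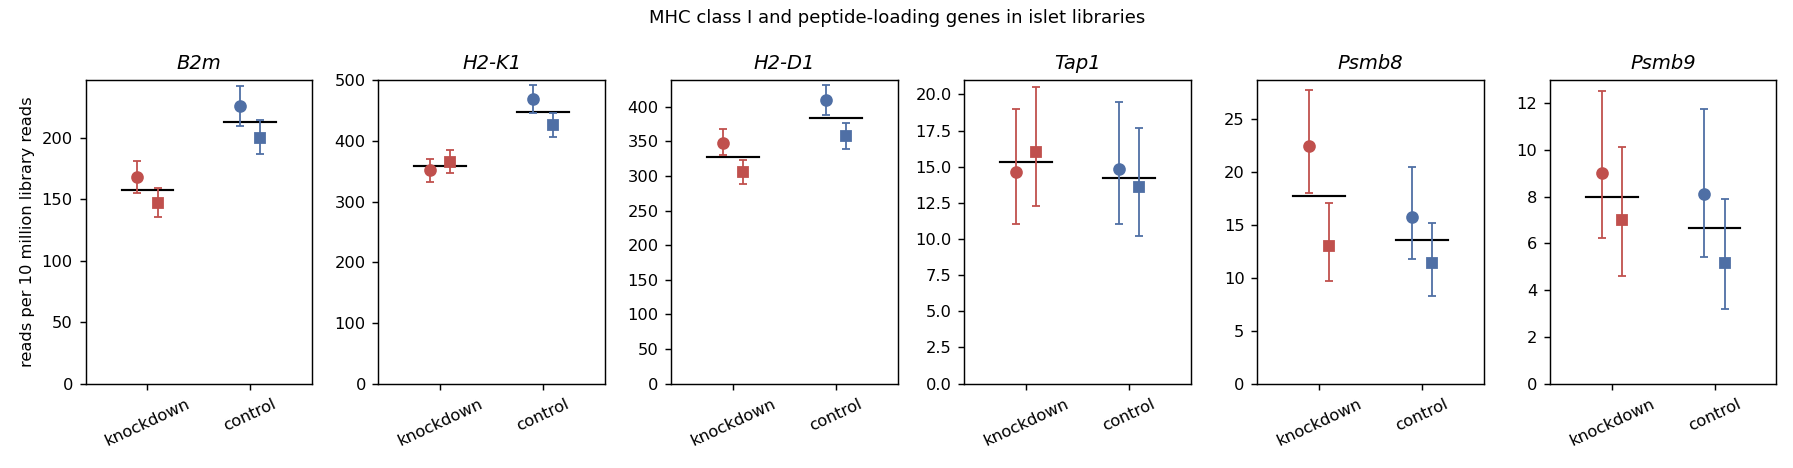
Units (reads per 10000000 library reads) of the 6 MHC class I and peptide-loading members in each library, knockdown left and control right, with the group mean as a line; circles are knockdown replicate 3 and control replicate 1, squares knockdown replicate 4 and control replicate 2, and bars the 95% Poisson interval for counting error. B2m, H2-K1 and H2-D1 are lower in both knockdown libraries, while Tap1, Psmb8 and Psmb9 overlap.

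Of the genes that cut and transport peptides for class I, 0 of 3 members were called by limma or edgeR. Psmb8, an interferon-induced proteasome subunit, stood at 22.4 and 13.0 units in the knockdown libraries, against 15.7 and 11.3 units in the controls (log2 fold change 0.17 ± 0.26 SE, limma adjusted p = 0.780), and Psmb9, another such subunit, at 9.0 and 7.0 units in the knockdown libraries, against 8.14 and 5.18 units in the controls. Tap1, a subunit of the peptide pump of the endoplasmic reticulum, stood at 14.6 and 16.0 units in the knockdown libraries, against 14.8 and 13.6 units in the controls (limma adjusted p = 0.964). In all 3 the groups overlapped. Of 20 other tested genes of class I and antigen processing 0 were called by limma or edgeR, and 15 lay below the median of all genes. At an unadjusted p under 0.05 by limma there was 1, higher, against 9.88% of all tested genes higher. This was Psme1, a proteasome activator subunit, at 40.4 and 36.2 units in the knockdown libraries, against 27.6 and 25.7 units in the controls (limma adjusted p = 0.434). Nonclassical heavy chains gave 54.4 and 45.1 units in the knockdown libraries, against 56.1 and 60.1 units in the controls for H2-T23, and 35.1 and 30.5 units in the knockdown libraries, against 34 and 31.2 units in the controls for H2-Q4. Pdia3, a chaperone of the loading complex with the most reads of the list, stood at 499 and 537 units in the knockdown libraries, against 573 and 482 units in the controls. The 3 constitutive proteasome subunits that Psmb8 and its relatives replace had log2 fold changes from 0.16 to 0.21, with 0 called.

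Of 98 other tested genes of the pathway limma called 4 higher and 0 lower, against 2.49% and 0.0443% of all tested genes; edgeR called 2 higher, limma after scaling 1 and DESeq2 0. Ifitm3, a membrane protein that blocks virus entry (chromosome 7, 141009590 to 141010744, minus strand), rose: 46.3 and 20.1 units in the knockdown libraries, against 10.5 and 16.5 units in the controls (log2 fold change 0.99 ± 0.25 SE, limma adjusted p = 4.94e-04; 0.0458 by edgeR, 0.0919 after scaling and 1.0 by DESeq2). After scaling its groups overlapped. Knockdown replicate 3 was the high library, and without it Ifitm3 was not called (limma adjusted p = 1.0). The edgeR call was also lost without control replicate 1 (adjusted p = 0.867) or 2 (0.168). Ifitm3 is also abundant in endothelial and stromal cells, whose markers were higher in the same libraries, and their part was not tested.

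Socs3, a feedback inhibitor of JAK signalling that answers mainly to the interleukin 6 family (chromosome 11, 117966087 to 117969366, minus strand), rose: 58.9 and 48.8 units in the knockdown libraries, against 28.5 and 30.1 units in the controls (log2 fold change 0.69 ± 0.25 SE, limma adjusted p = 0.0264; 0.0164 by edgeR and 0.0304 after scaling). The groups were well apart, at 53.9 ± 7.15 units in the knockdown and 29.3 ± 1.14 units in the controls (SD, n = 2 each). It was not called by DESeq2 (adjusted p = 0.136), without knockdown replicate 3 (limma adjusted p = 1.0) or without knockdown replicate 4 (0.357). Its edgeR call was lost without control replicate 1 (adjusted p = 0.849), control replicate 2 (0.0924) or knockdown replicate 3 (0.157). Socs1, the inhibitor that answers mainly to interferon, stood at 1.04 and 2.16 units in the knockdown libraries, against 0.872 and 0.740 units in the controls (limma adjusted p = 0.854). Apobec3, a cytidine deaminase that restricts retroviruses (chromosome 15, 79892408 to 79908429, plus strand), rose: 21.9 and 17.2 units in the knockdown libraries, against 8.57 and 11.6 units in the controls (log2 fold change 0.73 ± 0.26 SE, limma adjusted p = 0.0258). Apobec3 lost its call by edgeR (adjusted p = 0.182) or with scaled libraries (limma adjusted p = 0.167), and without control replicate 1 (0.0531), knockdown replicate 3 (1.0) or knockdown replicate 4 (0.113). Its span overlaps D730005E14Rik, and reads of the overlap cannot be told apart.

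**Figure D5:**
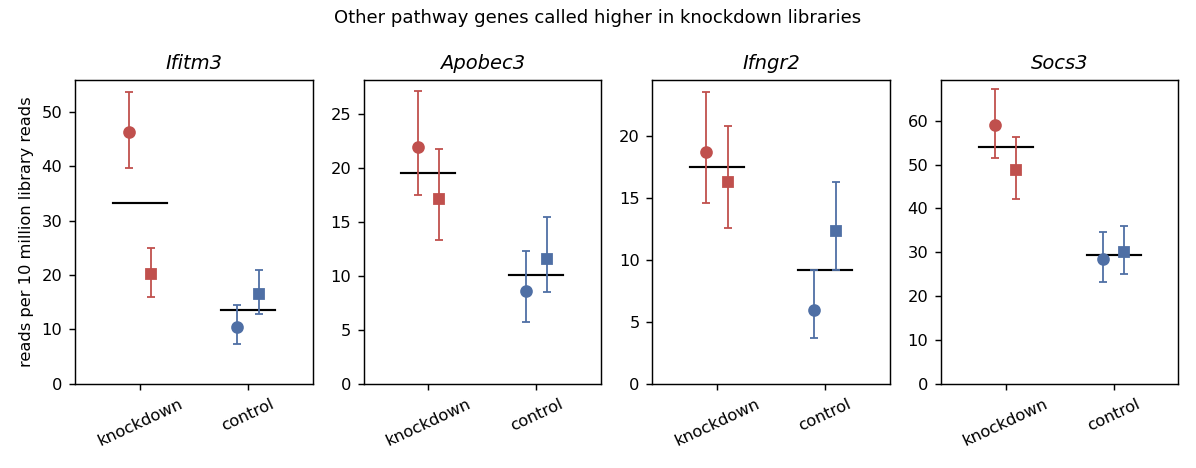
Units of the 4 other pathway genes called higher by limma, knockdown left and control right; lines are group means, circles knockdown replicate 3 and control replicate 1, squares knockdown replicate 4 and control replicate 2, and bars the 95% Poisson interval for counting error. Socs3 and Apobec3 are higher in both knockdown libraries, and for Ifitm3 knockdown replicate 4, at 20.1 units, lies close to control replicate 2, at 16.5.

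By list, the 38 tested other interferon-induced genes had 2 called higher by limma and a median log2 fold change of 0.058. At an unadjusted p under 0.05 there were 9, all higher. Over all tested genes limma called 2.49% higher, and 9.88% were higher at an unadjusted p under 0.05. EdgeR called 1 of the 38 higher, limma after scaling 0 and DESeq2 0. Lgals3bp, a secreted glycoprotein with the most reads of that list, stood at 467 and 429 units in the knockdown libraries, against 515 and 439 units in the controls. The 12 negative regulators had 1 called higher and a median of -0.037, and Ptpn11, a phosphatase with the most reads among them, stood at 159 and 163 units in the knockdown libraries, against 185 and 132 units in the controls. For all 98 genes the median was -0.0028, with 48 above and 50 below the median of all genes.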

How the data were processed

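Per the labels' protocols, ribosomal RNA was removed from total islet RNA and directional, randomly primed libraries were made. The submitters' processing notes list STAR 2.5.1b, HOMER 4.9, edgeR and the build mm10 but not what each was used for. The deposited signal is named FPKM but was found to be reads scaled to 10000000 per library and not divided by gene length: 100% of values were whole multiples of 1 read within 0.01 reads. Among genes with 1 to 20 reads 81.5% to 83.1% of the counts were even, so that both mates of a fragment were apparently counted, and Poisson intervals use fragments and cover counting error only. The deposited length equals the gene span for 99.5% of 24940 genes, and 6099 genes overlap another. Whether strand was used in counting is not given in the sources used here. The values of Patl2 nearly repeat those of B2m, on the opposite strand, in all 4 libraries, so that strand was apparently not used there.

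Genes of 200 nt or longer whose mean reached 1 unit were fitted on log2(value + 1) with limma 3.58.1 (R 4.3.3, mean-variance trend, two-sided, Benjamini-Hochberg over 13531 genes, threshold 0.05). The prior degrees of freedom were infinite, so that the spread of each gene came from the trend. A fold change on this scale understates that of low genes. EdgeR 4.0.16 (quasi-likelihood, TMM) and DESeq2 1.42.0 were run on the recovered reads. The limma and edgeR tests were tried on simulated data whose changes were larger than those of the members. That trial cannot show how often changes as small as those of the members would be called. The 2 libraries of a group are separate pools of mice. Members and lists were chosen with earlier results of these data known; named are all members, and of each other list the genes called, the gene with the highest mean and that with the largest statistic. Ifnar1, Ifnar2, Ifngr1, Mavs, Nlrc5, Socs1, H2-T23, H2-Q4 and the genes of the closing observations fall outside that rule and were added after their values were seen.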

Additional observations from a re-analysis of the deposited data

How the results depend on the processing

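No paired analysis was possible because the groups share no replicate number. Over all tested genes limma called 337 higher and 6 lower. The counts were 151 and 21 after median-ratio scaling, 174 and 20 with edgeR, 160 and 18 with edgeR on fragments (reads halved), 83 and 11 with DESeq2, 528 and 16 without the trend and 80 and 0 with no filter on low values (at 1513 genes with an unadjusted p under 0.05), and 86 were higher after quantile normalization. With 1 library left out, in limma, edgeR or scaled fits, higher calls ran from 0 to 1266 and lower calls from 0 to 68. Members called lower numbered 2 after scaling and with DESeq2, and 1 after quantile normalization, with edgeR and with edgeR on fragments; with 1 library left out members called ran from 0 to 2 higher and from 0 to 2 lower. Other pathway genes called higher numbered 1 after scaling, 0 after quantile normalization, with no filter and with DESeq2, 2 with edgeR, 1 on fragments and 8 without the trend, and 0 to 10 with 1 library left out; called lower were 1 without the trend and 0 to 1 with 1 library left out.

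The median log2 fold change of all members ran from -0.26 to 0.089 and that of the interferon response members from -0.26 to 0.12 with 1 library left out; both were above 0 without knockdown replicate 4, and that of the interferon response members also by edgeR without control replicate 2. That of the MHC class I members was 0.0096 with overlapping genes left out, which removes B2m and H2-D1, against -0.23. With 1 library left out the log2 fold change changed sign for these genes: Irf9 (-0.14 to 0.12), Stat2 (-0.11 to 0.33), Ifih1 (-0.20 to 0.033), Zbp1 (-1.64 to 0.94), Eif2ak2 (-0.18 to 0.62), Ifit1 (-0.26 to 0.44), Ifit2 (-0.030 to 1.25), Ifit3 (-0.72 to 1.08), Oasl1 (-0.39 to 1.59), Mx2 (-0.21 to 1.18), Rsad2 (-0.69 to 0.17), Bst2 (-0.52 to 0.75), Gbp3 (-0.83 to 0.48), Trim30a (-0.023 to 0.76), Isg15 (-0.37 to 1.21), Ifi35 (-0.70 to 0.19), Ifi44 (-0.33 to 0.11), Xaf1 (-0.16 to 0.34), Psmb8 (-0.21 to 0.56), Psmb9 (-0.068 to 0.29), Tap1 (-0.16 to 0.012) and Stat3 (-0.11 to 0.13). Signs also changed for Zbp1 with edgeR (0.16), DESeq2 (0.16) and edgeR on fragments (0.18), for Irf9 with no filter (0.0016) and a mean of at least 5 (0.0054), and for Xaf1 after quantile normalization (-0.00048). The cause was not tested. EdgeR on fragments and the left-out libraries under edgeR and scaling were chosen after the data were seen. Low read numbers limit the genes under about 50 reads, such as Zbp1, Ifit2 and Mx2.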

Other observations

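A further set of interferon-induced genes outside the 40 stood highest in knockdown replicate 3. They were picked after their values were seen and are given without a test. After scaling, knockdown replicate 3 was the highest library for 19 of the 38 tested other interferon-induced genes, 50%, against 28.7% of all tested genes. On the deposited values Slfn5 and Ifi203 were above both controls in knockdown replicate 4 too. Slfn5, a Schlafen protein, had 9.65 and 3.31 units in the knockdown libraries and 2.62 and 1.97 units in the controls. Ifi203, a DNA-binding PYHIN protein, had 5.22 and 1.53 units in the knockdown libraries and 0.872 and 1.23 units in the controls, and Iigp1, an immunity-related GTPase, had 4.43 and 0.763 against 0.291 and 0.987 units. Irgm2, of the same GTPase family, was higher in both knockdown libraries, at 17.7 and 12.0 units in the knockdown libraries, against 6.68 and 9.87 units in the controls (limma adjusted p = 0.0982). Trex1, the exonuclease that clears cytosolic DNA, had the lowest log2 fold change of the 98 other pathway genes, at 2.09 and 1.02 units in the knockdown libraries, against 3.78 and 4.56 units in the controls (-1.21 ± 0.38 SE, limma adjusted p = 0.137; 0.193 by edgeR), and shares its span with Atrip-trex1.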
